A study of Homo sapiens with 6 samples.

Results

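MHC class I molecules display peptides from inside the cell to CD8+ T cells and carry ligands for NK cell receptors. Each is made of a polymorphic heavy chain, such as HLA-B or HLA-C, and the invariant light chain beta-2 microglobulin, the product of B2M. Peptides made by the proteasome are carried into the endoplasmic reticulum by the transporter of TAP1 and TAP2, and tapasin, the product of TAPBP, holds the empty class I molecule at that transporter until a peptide binds. These genes are known for their joint induction by interferon in lymphocytes.

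The genes considered were B2M, HLA-B, HLA-C, HLA-E, HLA-F, TAP1, TAP2 and TAPBP, and every probe set listed with exactly 1 gene symbol that is 1 of these 8 was used. This gave 10 probe sets for 4 genes, of 19460 probe sets with 1 symbol for 18417 genes, with 1 for B2M and 3 each for TAP1, TAP2 and TAPBP. For the other 4 genes no such probe set was found. HLA-B, HLA-C and HLA-F appear only on 6 probe sets listed with a pair of these genes, and HLA-E was not analysed here. The array carries several copies of the MHC region as separate probe sets, and such copies can share probes.

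The RNA came from EVs released by WT Jurkat cells (cell line JK, genotype CD47_WT), a human T cell leukemia line, and by the JinB8 line (genotype CD47_mut), a Jurkat somatic mutant that lacks CD47. JinB8 is a single mutant line, so the loss of CD47 cannot be told apart from other differences between the lines. Both lines grew for 24 to 48 h in a serum-free HITES medium that contains hydrocortisone, insulin, transferrin and albumin, and no treatment was applied to either. Each group held 3 EV preparations, described by the submitters as culture replicates without more detail, and each preparation was hybridized to 1 Affymetrix human gene array. The p values from limma rest on the spread between these preparations, drawn for each probe set towards that of all probe sets in the fit.

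Values are log2 RMA values, relative levels within the RNA of a preparation after background correction and normalization, and the amount of RNA in the EVs cannot be read from them. The array medians lay between 5.08 and 5.14, with r of 0.980 to 0.989 between arrays. No detection calls were given. As a rough gauge of background, 360 probe sets of olfactory receptors, genes normally silent in T cells, had a median of 5.45 and a 95th percentile of 6.78, although binding strength varies from probe to probe. For CD47 the probe set read 4.71 ± 0.02 in WT arrays and 4.73 ± 0.19 in CD47- arrays (mean ± SD, n = 3 each), too dim to check the labels. Of 16 measured T cell marker genes, 11 lay above the olfactory receptor median, with CD7 and LCK above its 95th percentile, whereas TRAT1 and RAG1 lay well below the median. So did 4 of 7 NK cell, 4 of 6 platelet and erythroid and 4 of 8 stromal and endothelial marker genes lie above the median. For myeloid and B cell markers it was 3 of 8 and 2 of 7. COL1A1, a stromal gene, read 7.07, above the 95th percentile. A level above the median therefore does not by itself show that a gene was expressed.

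The promoters of the measured genes are shown because the interferon response genes are read beside them below. Each window runs from 250 bases before the RefSeq start of the gene over its first 50 bases (GRCh38.p14, 5′ to 3′ on the strand of the gene), at chr15:44711267-44711566 on the plus strand for B2M and at chr6:32853655-32853954, chr6:32838690-32838989 and chr6:33314029-33314328 on the minus strand for TAP1, TAP2 and TAPBP. Capitals mark the core of the interferon-stimulated response element, searched on both strands as GAAA, any 2 bases and GAAA again.
B2M: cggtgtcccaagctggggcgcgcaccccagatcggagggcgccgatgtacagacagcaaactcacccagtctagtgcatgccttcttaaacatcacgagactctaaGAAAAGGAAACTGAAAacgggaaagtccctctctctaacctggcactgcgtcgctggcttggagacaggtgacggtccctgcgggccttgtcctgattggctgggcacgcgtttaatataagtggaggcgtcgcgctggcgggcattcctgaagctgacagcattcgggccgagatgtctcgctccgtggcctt
TAP1: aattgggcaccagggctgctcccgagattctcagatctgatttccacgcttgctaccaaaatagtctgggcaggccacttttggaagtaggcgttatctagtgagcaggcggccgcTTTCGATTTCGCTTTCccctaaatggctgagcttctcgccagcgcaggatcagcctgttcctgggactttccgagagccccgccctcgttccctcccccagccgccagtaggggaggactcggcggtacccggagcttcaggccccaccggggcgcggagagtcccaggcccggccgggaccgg
TAP2: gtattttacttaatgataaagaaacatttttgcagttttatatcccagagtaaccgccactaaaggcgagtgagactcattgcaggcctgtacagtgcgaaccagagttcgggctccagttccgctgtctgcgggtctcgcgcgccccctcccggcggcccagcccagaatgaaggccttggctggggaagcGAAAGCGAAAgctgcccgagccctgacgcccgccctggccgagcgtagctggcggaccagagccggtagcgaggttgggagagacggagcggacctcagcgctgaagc
TAPBP: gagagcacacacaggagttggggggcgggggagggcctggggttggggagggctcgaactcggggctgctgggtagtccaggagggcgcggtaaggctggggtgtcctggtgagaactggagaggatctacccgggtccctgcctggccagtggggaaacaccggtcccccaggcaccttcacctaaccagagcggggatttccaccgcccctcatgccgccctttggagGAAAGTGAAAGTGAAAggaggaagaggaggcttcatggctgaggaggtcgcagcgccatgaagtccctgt
All 4 windows hold this core, which occurs in 3.57% of 35116 promoter windows of the same length. Its first base lies at -144 and -138 in B2M, at -134 and -128 in TAP1, at -58 in TAP2 and at -20 and -14 in TAPBP, where a pair of positions marks overlapping matches. A loose form of the NF-kappaB site, GGGA followed by any 4 bases and CC, occurs in the windows of B2M, TAP1 and TAPBP and in 25.6% of all windows. In B2M and in TAP1 the CCAAT box occurs too, as it does in 34.6% of all windows. These matches describe letters and do not show that a factor was bound.

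No difference between CD47- and WT EVs passed the test in any of the 10 probe sets. With limma, 0 of 10 were called at an adjusted p under 0.05 and 0 of 10 at an unadjusted one, where 0.725% and 8.16% of the 19460 probe sets were. A test with unshared variance called 1 of 19460 probe sets after adjustment, and 0 of these 10, so little can be read from its count. The 3 TAP1 probe sets hold the same value on every array and count as 1 measurement, which leaves 8 distinct profiles, and in 0 of these 8 did the groups separate without overlap (12.9% of all probe sets). Their log2 differences ran from 0.02 to 0.16 with a median of 0.05, beside a median of 0.0036 over all probe sets. All 8 lay above 0, as did 51.5% of all probe sets, but the profiles of TAP2 and TAPBP are copies of 1 gene each, and 1 TAPBP profile lay at -0.0056 after a further quantile normalization. The 95% intervals of the 8 profiles lay between -0.15 and 0.36 on the log2 scale, which is 0.899-fold to 1.28-fold in the measured values.

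B2M had log2 values of 4.25, 4.32 and 4.14 in the 3 WT arrays and of 4.30, 4.31 and 4.58 in the 3 CD47- arrays. WT replicate 2 lay above CD47- replicates 1 and 2, so the groups overlapped, and CD47- replicate 3 was the highest array. The log2 difference was 0.16 (standard error 0.09, 95% interval -0.04 to 0.36, adjusted p = 0.751 from limma), the largest among the 8 profiles. Without CD47- replicate 3 it was 0.07. Although B2M is known as an abundant transcript of lymphocytes, its probe set lay above only 15.8% of the olfactory receptor probe sets. A probe set this dim can show less than the full size of a change, and whether it did so was not tested.

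**Figure D1:**
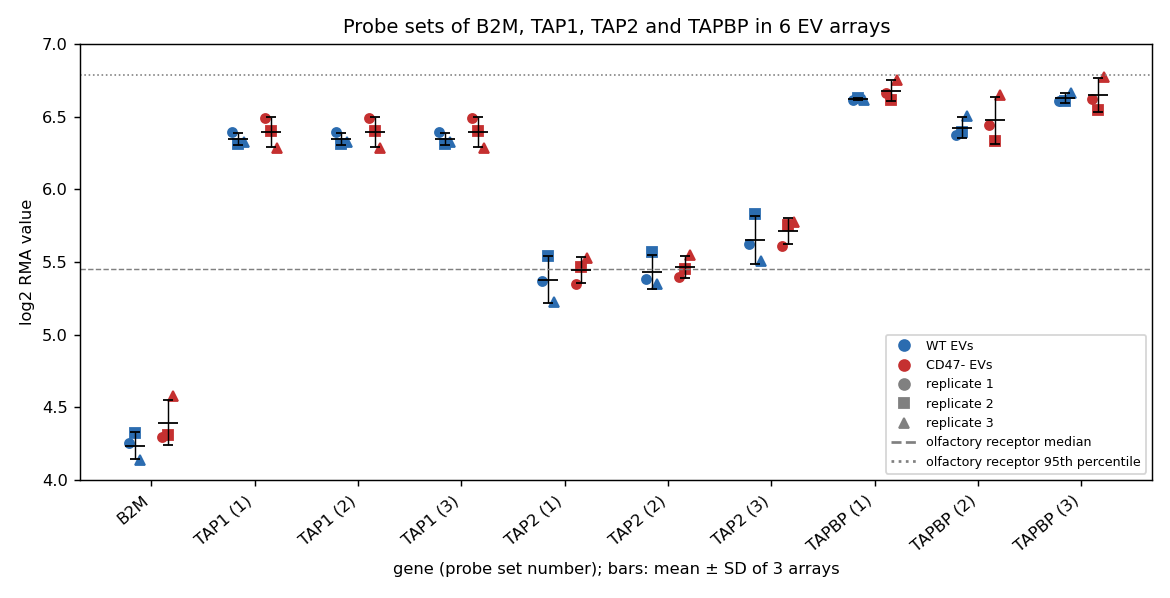
log2 RMA value (vertical axis) of each of the 10 probe sets of B2M, TAP1, TAP2 and TAPBP (horizontal axis) in WT EVs (blue) and CD47- EVs (red), with 1 symbol shape for each replicate and the mean ± SD of 3 arrays in black. The groups overlap in every probe set, the means over 6 arrays of B2M and of TAP2 probe sets 1 and 2 lie below the olfactory receptor median of 5.45 (dashed), the latter by little, and none of the means lies above the 95th percentile of 6.78 (dotted).

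TAP1, a subunit of the peptide transporter, had log2 values of 6.40, 6.31 and 6.33 in WT arrays and of 6.49, 6.40 and 6.28 in CD47- arrays. The lowest and the highest array both came from CD47- EVs. The log2 difference was 0.04 (standard error 0.08, 95% interval -0.13 to 0.22, adjusted p = 0.953 from limma), which allows from 0.915-fold to 1.16-fold. Of the olfactory receptor probe sets, 83.9% were dimmer.

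TAP2 encodes the other transporter subunit. Its brightest probe set had log2 values of 5.63, 5.83 and 5.50 in WT arrays and of 5.61, 5.75 and 5.77 in CD47- arrays. WT EVs held both the highest and the lowest array. The other two probe sets lay just under the olfactory receptor median, above 49.2% and 49.4% of those probe sets. Across its 3 probe sets the log2 difference was 0.03 to 0.07 (standard errors 0.08 to 0.09, adjusted p from 0.934 to 0.976 from limma). The 3 copies followed each other over the 6 arrays with r from 0.945 to 0.989, which probes shared by the copies can give. Their 95% intervals lay between -0.15 and 0.27.

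TAPBP, whose product tapasin joins class I molecules to the transporter, had log2 values of 6.62, 6.63 and 6.62 in WT arrays and of 6.67, 6.61 and 6.76 in CD47- arrays on its brightest probe set. The WT arrays lay within a narrow range, and the CD47- arrays reached from just below it to above it. That probe set had a log2 difference of 0.06 (standard error 0.07, 95% interval -0.10 to 0.22, adjusted p = 0.933 from limma). The other two gave 0.05 and 0.02, with r from 0.859 to 0.988 among the 3. In each of these 3 copies CD47- replicate 3 was the highest array.

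In 4 of the 8 profiles CD47- replicate 3 was the highest array, namely those of B2M and TAPBP, whereas the lowest array of TAP1 was the same one. Over all 19460 probe sets it was the highest array for 16.5%. Without it the differences of TAPBP probe sets 2 and 3 were -0.04 and -0.04, and that of the second TAP2 probe set was -0.0079.

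The class I heavy chains could be read only as joint signals that cannot be assigned to a gene, and they were fitted with all 33297 probe sets of the table. Heavy chains form the peptide groove, HLA-B and HLA-C being classical molecules and HLA-F a nonclassical one. The first probe set listed with HLA-B and HLA-C gave 6.62, 6.63 and 6.66 in WT arrays and 6.67, 6.72 and 6.78 in CD47- arrays. Each CD47- array lay above each WT array here and in the second copy (6.60, 6.63 and 6.65 against 6.66, 6.71 and 6.76), but not in the last copy, and the groups separated for 13.1% of all 33297 probe sets. The log2 differences were 0.09, 0.09 and 0.07 (standard errors 0.07 to 0.08, adjusted p from 0.859 to 0.921 from limma), with none called where 0.544% of the table was. The first copy allowed from 0.955-fold to 1.18-fold.
The 3 probe sets listed with HLA-B and HLA-F lay between 6.06 and 6.28 over all arrays, with differences of 0.02, 0.0058 and 0.04 (adjusted p from 0.958 to 0.994 from limma). Their groups overlapped in every copy. CD47- replicate 3 was the highest array in all 6 of these joint probe sets, beside 16.5% of the probe sets with 1 symbol. The 6 are copies of the same gene pairs, can share probes and are not independent.

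**Figure D2:**
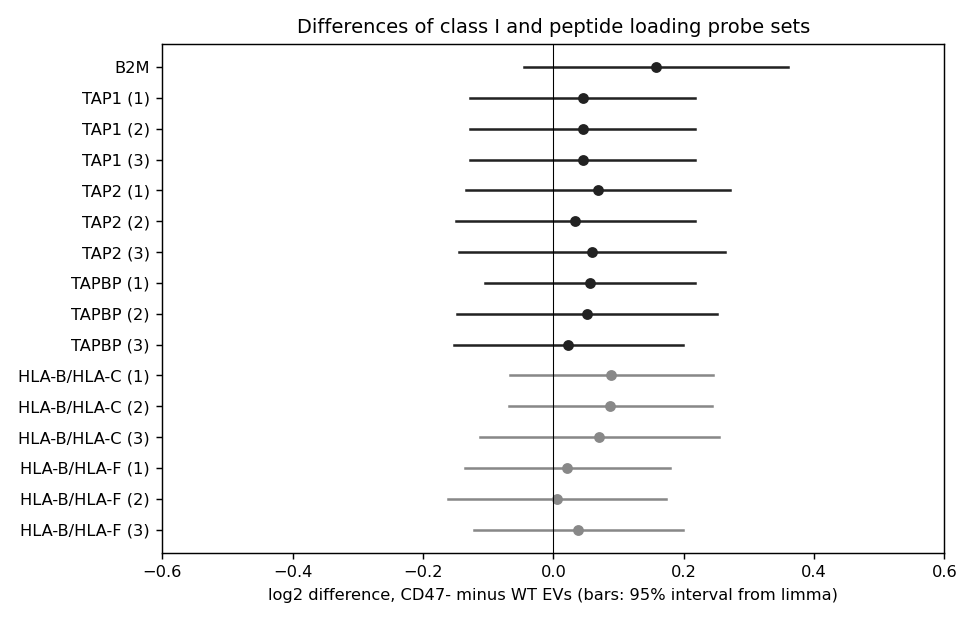
log2 difference between CD47- and WT EVs (horizontal axis) of each probe set (vertical axis), with points for the estimate and bars for the 95% interval from limma. The 10 probe sets with 1 gene symbol are in black and the 6 listed with a pair of HLA genes in grey. Every interval includes 0, and that of B2M reaches furthest, to 0.36.

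The other genes of antigen presentation, and related genes of the interferon response and the translocon, were read from 7 lists. These antigen presentation lists held 101 measured genes, each read through the brightest of its probe sets, in the same fit as the 10 probe sets. None was called higher or lower at an adjusted p under 0.05 from limma (0.725% of all probe sets were called). Without adjustment 5 genes were higher and 1 was lower at a p under 0.05, which is 6 of 101 beside 8.16% of all probe sets. The test with unshared variance called 0 of them and 1 of 19460 in all.

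Among 10 measured genes of peptide loading and trimming, 9 lay above 0, beside 51.5% of all probe sets. The median log2 difference was 0.08, beside 0.0036 over all probe sets. Only 2 of the 10 had an unadjusted p under 0.05 from limma, and 3 had a mean above the olfactory receptor median. Calnexin, the product of CANX, is the chaperone that holds newly made heavy chains before they meet beta-2 microglobulin. CANX had log2 values of 5.19, 5.45 and 5.31 in WT arrays and of 5.73, 5.68 and 5.98 in CD47- arrays. The groups did not overlap, as in 12.9% of all probe sets. The log2 difference was 0.48 (unadjusted p = 4.00e-04, adjusted p = 0.0537 from limma), just outside the threshold. CANX passed in 3 of 15 alternatives, after centering on the olfactory receptor probe sets, with another variance model and among the brighter probe sets. Its adjusted p ran from 0.0152 to 0.573 over the alternatives, the latter with unshared variance. With 1 array left out it was 0.0574 to 0.217 from limma. The centering shifts every difference by the same amount, for B2M from 0.16 to 0.22. HSPA5, the chaperone BiP of the endoplasmic reticulum, was dim, above only 11.1% of the olfactory receptor probe sets. Its groups did not overlap either. It had a log2 difference of 0.29 (adjusted p = 0.411 from limma), and of 0.18 without WT replicate 3. CALR, which encodes the calreticulin of the loading complex, had one of 0.22 (adjusted p = 0.687 from limma).
Genes of the translocon and of signal sequence handling bring class I chains into the endoplasmic reticulum. Of 17 measured, 12 lay above 0, beside 51.5% of all probe sets, with a median of 0.09. Only 1 of the 17 had an unadjusted p under 0.05 from limma. SSR2, a subunit of the translocon-associated complex, gave 5.46, 5.63 and 5.29 in WT arrays and 5.79, 5.84 and 5.96 in CD47- arrays. These groups did not overlap either, as in 12.9% of all probe sets. Its log2 difference was 0.40 (adjusted p = 0.0998 from limma). SSR2 passed in 2 of 15 alternatives, after the same centering and among the brighter probe sets (adjusted p from 0.0269 to 0.596 over the alternatives). With 1 array left out its adjusted p from limma was 0.0584 to 0.336. SEC63, a translocation factor, lay on the other side with -0.17 (adjusted p = 0.618 from limma), and its groups did not overlap.

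**Figure D3:**
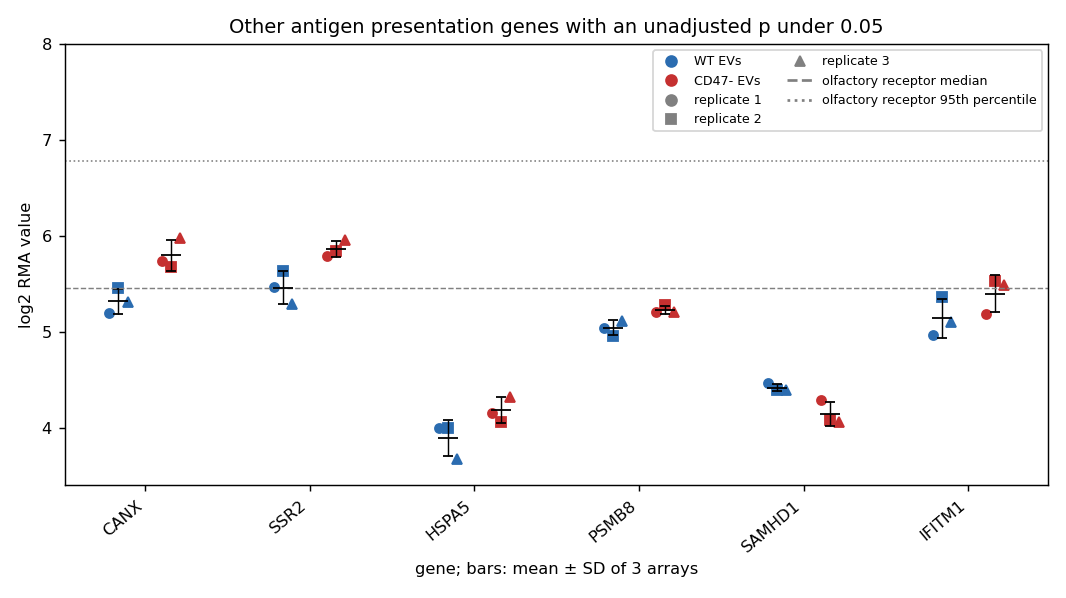
log2 RMA value (vertical axis) in WT EVs (blue) and CD47- EVs (red) of the 6 genes of the antigen presentation lists with an unadjusted p under 0.05 (horizontal axis), with 1 symbol shape for each replicate and the mean ± SD of 3 arrays in black. The mean of CD47- EVs lies above that of WT EVs by 0.48 for CANX and 0.40 for SSR2, and below it by 0.28 for SAMHD1. None passed the adjusted threshold.

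The inducible proteasome subunits and the PA28 activator, which shape the peptides that TAP carries, had a median of 0.04 over 6 measured genes, of which 3 lay above 0. PSMB8, an inducible catalytic subunit, had log2 values of 5.04, 4.96 and 5.12 in WT arrays and of 5.21, 5.28 and 5.20 in CD47- arrays. Its groups did not overlap (12.9% of all probe sets did not), and the difference of 0.19 did not pass (adjusted p = 0.498 from limma). PSMB10, another catalytic subunit of the same particle, had one of -0.19 (adjusted p = 0.676 from limma), which was -0.29 without WT replicate 1. PSMB9, the divergent neighbour of TAP1 in the genome, had one of -0.0064 (adjusted p = 0.996 from limma).

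The transcriptional regulators of class I genes had a median of 0.0079, with 8 of 16 above 0. RFXANK, a subunit of the factor that binds the X box, had a log2 difference of 0.17 (adjusted p = 0.716 from limma), which was 0.11 without CD47- replicate 1 and 0.26 without CD47- replicate 2. USF2, an E-box factor, had one of 0.12 (adjusted p = 0.766 from limma), and its groups did not overlap. The 26 measured interferon response genes had a median of -0.0023, with 12 above 0. SAMHD1, a dNTP hydrolase, had log2 values of 4.46, 4.40 and 4.40 in WT arrays and of 4.29, 4.08 and 4.06 in CD47- arrays. The groups did not overlap, as in 12.9% of all probe sets. The probe set was dim, above only 15.8% of the olfactory receptor probe sets. The log2 difference was -0.28 (adjusted p = 0.25 from limma). IFITM1, a membrane protein that restricts viruses, had one of 0.26 (adjusted p = 0.601 from limma), and of 0.17 without WT replicate 1.

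The 14 measured genes of other class I and class I-like molecules had a median of -0.01, and 7 lay above 0. MICA, a stress-induced ligand of the receptor NKG2D, was dim, its brightest probe set lying above only 9.72% of the olfactory receptor probe sets. That probe set had a log2 difference of 0.18 and the other one of 0.10 (adjusted p = 0.666 from limma for the former). On the brightest the groups did not overlap. Without WT replicate 1 the brightest gave 0.09. AZGP1, a secreted protein with a class I fold, had one of -0.14 (adjusted p = 0.774 from limma), and of -0.06 without CD47- replicate 2. The class II list joins chains that load or present peptides from outside the cell with a regulator and processing enzymes. Class II chains are not normally expressed by Jurkat cells. The list had a median of -0.02 over 12 measured genes, of which 5 lay above 0. The smallest p values there belonged to CTSS, a lysosomal protease (-0.14, adjusted p = 0.751 from limma), and HLA-DQB1, a beta chain (-0.18, adjusted p = 0.774 from limma). CTSS gave -0.09 without CD47- replicate 1. HLA-DQB1 gave -0.33 without CD47- replicate 1, and -0.11 without either of the other CD47- replicates. Of these 12 genes, not all of them class II chains, 10 had a mean above the olfactory receptor median, as had 11 of the 16 T cell markers.

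**Figure D4:**
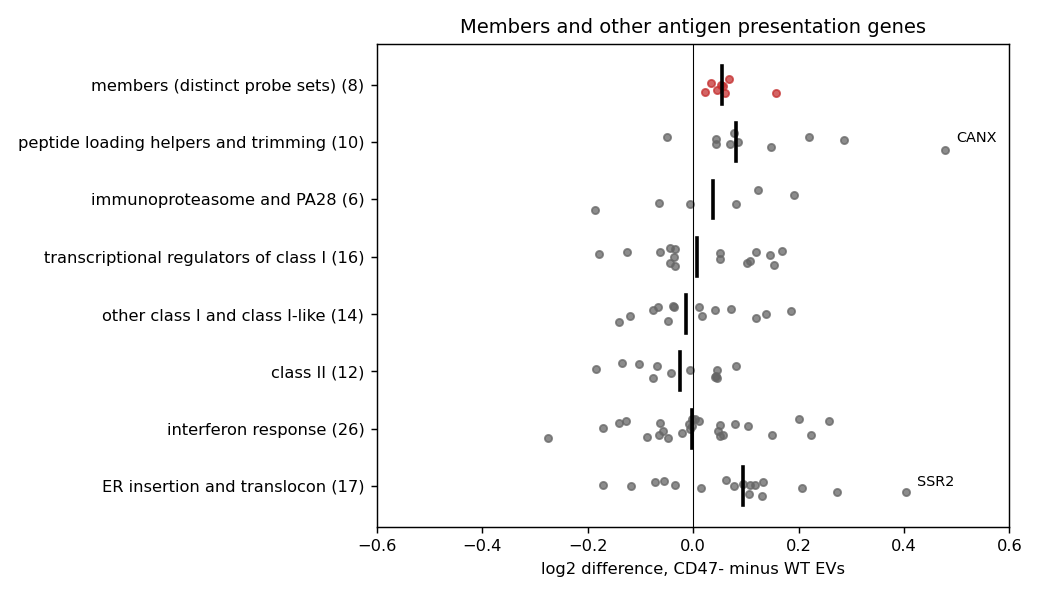
log2 difference between CD47- and WT EVs (horizontal axis) of the 8 distinct profiles of B2M, TAP1, TAP2 and TAPBP (red) and of each measured gene (grey) in 7 lists (vertical axis, number of genes in parentheses), with the median as a black bar. The medians run from -0.02 for class II genes to 0.09 for the translocon list, with 0.05 for the 8 profiles, and CANX and SSR2 lie furthest to the right.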

How the data were processed

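RNA of 6 EV preparations, 3 from WT and 3 from CD47- Jurkat cells, was measured on Affymetrix arrays from 300 ng of total RNA each. The authors deposited log2 values, which they had made by RMA in Expression Console per the submitters' processing notes, with versions not given in the sources used here. For EV isolation the labels name Exo-quick or Exo-spin without tying either to a sample, while the study's text names Exo-quick for the EVs in which mRNAs dependent on CD47 were sought. Groups and replicate numbers came from the sample titles.

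Gene names came from the annotation of the platform; 19460 of 33297 had 1 symbol, 1754 several and 12083 none. Differences were tested with limma 3.58.1 in R 4.3.3 (lmFit and eBayes, no filter on dim probe sets) over all probe sets with 1 symbol, with Benjamini-Hochberg adjustment and a threshold of 0.05. The fit was tested on simulated data whose shifts were larger than the differences of the members. That test cannot decide whether changes as small as theirs would be called. Named genes were all members, the 2 genes with the smallest p in each list, since none was called, the 5 genes most like the members, and CD47. CALR, PSMB9, COL1A1 and the T cell markers named were added after their values were seen. The members and lists were chosen with earlier results of these data known. The number of arrays limits the precision. Promoter sequences are from RefSeq, where all 4 measured genes matched; the array values name no genome build.

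Alternatives were a block for the replicate number, centering on olfactory receptor probe sets, a further quantile normalization, other variance models, array weights, filters on dim probe sets, other sets of probe sets, other thresholds and leaving out each array. The mean of the probe sets of a gene was added after seeing the data.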

Additional observations from a re-analysis of the deposited data

How the results depend on the processing

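None of the 10 probe sets of B2M, TAP1, TAP2 and TAPBP was called under any alternative run, and a filter at the olfactory receptor 95th percentile left none of them to test. Of 101 genes in the antigen presentation lists, 2 were called higher at an adjusted p under 0.1, where the share of all probe sets was not counted. With arrays centered on olfactory receptor probe sets it was 2, where 1.33% of all probe sets were called in either direction. Among probe sets above the olfactory receptor median it was 2, where 2.29% were called. With eBayes with trend and robust it was 1, where 0.771% were called. After a further quantile normalization TAPBP probe set 3 had a difference of -0.0056 and the second probe set of HLA-B and HLA-F of -0.017. Leaving out 1 array gave differences from -0.0035 to 0.10 for TAP1, from -0.0094 to 0.15, -0.0095 to 0.10 and -0.015 to 0.15 for the 3 TAP2 probe sets, from -0.035 to 0.12 and -0.040 to 0.074 for TAPBP probe sets 2 and 3, from -0.011 to 0.044 and -0.027 to 0.039 for the first and second probe sets of HLA-B and HLA-F, and from -0.088 to 0.091 for CD47. The causes were not tested. The mean of the probe sets of each gene gave 0.16 for B2M, 0.04 for TAP1, 0.05 for TAP2 and 0.04 for TAPBP.
Samples with the same replicate number did not deviate together over all probe sets (r of 0.0222, -0.0174 and -0.0441). Pairs with different numbers had r from -0.0416 to 0.0551. An r over all probe sets cannot decide whether samples with the same number shared a culture or a hybridization day, which the labels do not state. With the replicate number as a block, 111 of 19460 probe sets were called in place of 141, with 0 members and 0 list genes, and B2M had the same difference of 0.16 (adjusted p = 0.788 from limma). Over all probe sets, 65 were called without WT replicate 3, 72 without CD47- replicate 3, 88 without CD47- replicate 2, 259 after the centering and 1 with unshared variance. Of the 8 profiles, 5 lay above the olfactory receptor median. The share of probe sets called was 2.29% above it and 9.96% above the 95th percentile, and whether dim signal hid differences in these genes was not tested.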

Other observations

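The genes most like the mean centred profile of B2M, TAP1, TAP2 and TAPBP over the 6 arrays were ENAM, an enamel matrix protein (r = 0.996), MRPL12, a mitochondrial ribosomal protein (r = 0.996), PA2G4, a growth-regulating nucleolar protein (r = 0.996), FIBIN (r = 0.994) and STMN3, a stathmin family protein (r = 0.994). Their log2 differences between CD47- and WT EVs were 0.39, 0.12, 0.44, 0.09 and 0.12, and none passed the test. With 6 arrays from the same normalization, 285 of 18413 genes had r over 0.9. The 16 T cell marker genes summed, unlogged, to 1021 to 1126 in WT EVs and to 1153 to 1160 in CD47- EVs. None of these genes was called. The sums of the peptide loading list (327 to 365 against 371 to 401) and the translocon list (724 to 762 against 778 to 813) separated too. Those of the other lists overlapped. Such a sum is weighted towards the brightest probe sets and includes their background. It does not show that CD47- EVs held more T cell mRNA. The median log2 difference over the 16 was 0.05. CD3D, CD3E and CD3G, subunits of the T cell receptor complex, had log2 differences of 0.28, 0.37 and 0.34 (adjusted p of 0.44, 0.112 and 0.173 from limma). Their groups did not overlap, as in 12.9% of all probe sets, and these genes were singled out after their values were seen. CD247, another subunit of the complex, had a log2 difference of -0.04 with overlapping groups (adjusted p = 0.974 from limma). Of the 16 genes, 10 lay above 0.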
